A study of Homo sapiens with 6 samples.

Results

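The miR-15 and miR-16 clusters are 3 short stretches of the genome that each encode a pair of related miRNA hairpins, and they are described here in HEK 293T cells that lack the terminal uridylyltransferases TUT4 and TUT7. The members are the 8 entries of the count table named hsa-miR-15a-5p, hsa-miR-15b-5p, hsa-miR-15b-3p, hsa-miR-16-5p, hsa-miR-16-1-3p, hsa-miR-16-2-3p, hsa-miR-195-5p and hsa-miR-497-5p, out of 1000 listed mature miRNAs, and the prefix is left out from here on. They were chosen by name, and all 8 are among the 826 miRNAs whose highest count was above 7 and which were tested. The study compared 3 libraries of TENT3A/B double knockout cells, called ΔTUT4/7 here since TENT3A and TENT3B are other names of TUT4 and TUT7, with 3 libraries of wild type cells. Both strains are HEK 293T, a transformed human embryonic kidney line, grown without treatment in DMEM with fetal bovine serum. The ΔTUT4/7 cells are a single published knockout strain that the authors received from another laboratory, while the wild type cells came from a cell repository, so the culture history of the strains and the deletion cannot be told apart. Total RNA of each library holds all cells of a culture, and fewer cells with a miRNA and less of it per cell cannot be told apart.

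A miRNA hairpin is cut by DROSHA and DICER into a duplex of a 5p and a 3p arm. Of these the guide stays in Argonaute and the other arm, the passenger, is mostly lost. TUT4 and TUT7 add uridines to the 3′ ends of RNAs, among them precursor miRNAs of the let-7 family, which can be degraded once they carry a uridine tail. In the miR-15 and miR-16 clusters the 5p arm is the guide, and these guides are known for repressing BCL2, which blocks apoptosis, and cyclins that drive cells into S phase. None of the 6 hairpins of the members is on the study's list of group II precursors, which need an added nucleotide before DICER can cut them.

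The mature sequences, from RefSeq on GRCh38.p14 and written 5′ to 3′, are shown because the shared seed defines the family, and because the reads were trimmed to 18 nt, within which the 5p arms are close to each other. Capitals mark the seed, bases 2 to 8.
miR-16-5p: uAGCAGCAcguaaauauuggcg
miR-195-5p: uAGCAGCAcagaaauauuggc
miR-15a-5p: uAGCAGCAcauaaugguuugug
miR-15b-5p: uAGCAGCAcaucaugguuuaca
miR-497-5p: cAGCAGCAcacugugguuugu
miR-16-1-3p: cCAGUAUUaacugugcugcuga
miR-16-2-3p: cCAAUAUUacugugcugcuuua
miR-15b-3p: cGAAUCAUuauuugcugcucua
All 5 of the 5p members carry the seed AGCAGCA, and the 3 members from 3p arms each carry another one. Counted from 1 at the 5′ end, miR-16-5p and miR-195-5p differ within the first 18 nt by G10A and U11G, and miR-15a-5p and miR-15b-5p by A12C alone. The sources used here do not give the number of mismatches allowed when reads were assigned, and an exchange of reads within these pairs was not tested. Among the 3p arms, miR-16-1-3p and miR-16-2-3p differ at 10 of these positions, a count that allows no shift of one sequence against the other. By the same count the listed arm nearest to miR-16-1-3p is miR-195-3p, which is no member, with the differences G4A, A9G and A10G. No member shares its whole first 18 nt with another listed miRNA that has a RefSeq sequence.

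The hairpins are shown because they place each arm at a locus. Capitals mark the mature arms, in the order 5p and 3p.
MIR15A: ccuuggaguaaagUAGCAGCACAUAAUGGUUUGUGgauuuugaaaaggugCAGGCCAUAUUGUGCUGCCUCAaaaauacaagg
MIR16-1: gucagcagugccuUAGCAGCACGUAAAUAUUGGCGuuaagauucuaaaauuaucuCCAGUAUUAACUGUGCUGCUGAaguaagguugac
MIR15B: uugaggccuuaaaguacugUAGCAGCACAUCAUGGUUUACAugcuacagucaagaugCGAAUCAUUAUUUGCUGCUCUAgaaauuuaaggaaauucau
MIR16-2: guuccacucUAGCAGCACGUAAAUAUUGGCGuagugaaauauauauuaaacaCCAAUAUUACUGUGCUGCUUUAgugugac
MIR195: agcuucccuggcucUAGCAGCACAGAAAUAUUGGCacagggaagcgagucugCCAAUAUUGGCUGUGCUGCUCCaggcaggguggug
MIR497: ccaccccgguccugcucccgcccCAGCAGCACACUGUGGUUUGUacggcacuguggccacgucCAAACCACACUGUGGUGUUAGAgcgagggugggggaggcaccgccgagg
MIR15A (chr13:50049119-50049201) and MIR16-1 (chr13:50048973-50049061) lie 57 nt apart on the minus strand within DLEU2, a long noncoding RNA of a region often lost in chronic lymphocytic leukaemia. In GENCODE release 44 MIR15A overlaps an exon in 8 DLEU2 transcripts, and MIR16-1 lies in an intron. MIR15B (chr3:160404588-160404685) and MIR16-2 (chr3:160404745-160404825) lie 59 nt apart on the plus strand in an intron of SMC4, which encodes a condensin subunit. MIR195 (chr17:7017615-7017701) and MIR497 (chr17:7017911-7018022) lie 209 nt apart on the minus strand within MIR497HG, and both overlap an exon in 1 of its transcripts. The annotation also places further genes known only by identifier over the SMC4 intron, on the opposite strand, and over the MIR497HG locus, on the same strand. The 5p arm of MIR16-1 and of MIR16-2 is the same molecule, so miR-16-5p is the sum of both loci, while miR-16-1-3p and miR-16-2-3p report on 1 locus each.

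The library totals bear on every value of these abundant miRNAs. The totals ranged from 4688610 to 5073921 counts in ΔTUT4/7 and from 4338558 to 7967606 counts among wild type libraries. Values are given as CPM, the count scaled to that total. Between 19.2% and 19.7% of the ΔTUT4/7 counts, but 5.57% to 6.36% of the wild type counts, belonged to the let-7 family with miR-98, and a larger share of 1 group of miRNAs lowers the CPM of all others. Each member was therefore also scaled to the counts left without let-7, miR-98 and miR-16-5p, called the reduced total from here on. TUT4, TUT7 and kidney cell markers are not mature miRNAs, so neither the genotype nor the cell type was checked here.

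miR-16-5p was the most abundant miRNA in all 6 libraries and was lower in ΔTUT4/7 cells. It took 17.7%, 17.8% and 17.5% of all counts in ΔTUT4/7 replicates 1, 2 and 3, and 24.03%, 27.99% and 23.51% in wild type replicates 1, 2 and 3. All ΔTUT4/7 libraries lay below all wild type libraries, and wild type replicate 2, the deepest library, stood above the other two wild type libraries. The 7 other members together took 0.894% to 0.932% of the counts in ΔTUT4/7 and 1.32% to 1.41% in wild type cells. Summed over the 8 members, the mean level was 185609 ± 1993 CPM for ΔTUT4/7 against 265244 ± 24245 CPM for the wild type (SD, n = 3 each), a difference of -0.51 on the log2 scale. By the exact two-sided permutation test over libraries this gave p = 0.1, the smallest that 3 against 3 libraries allow. On the reduced total the difference of the sum was -0.38, and without miR-16-5p in the sum it was -0.57 on the full total, both with the strains apart. The sum without miR-16-5p is mostly miR-15b-5p, with 5291 of 9071 CPM in ΔTUT4/7 and 8982 of 13499 CPM in wild type cells. It does not speak for each of the other members.

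**Figure D1:**
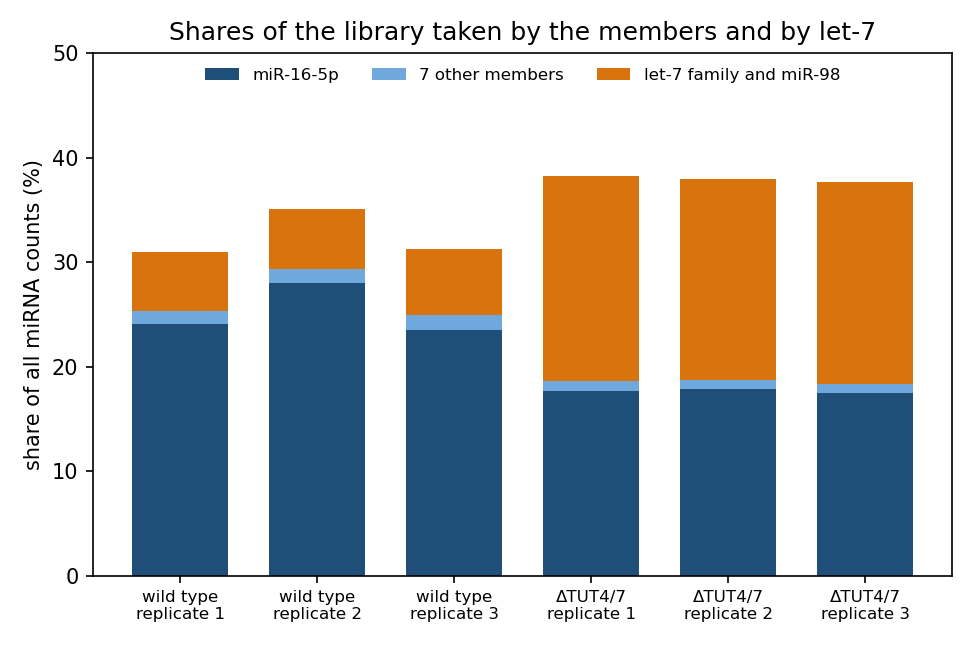
Stacked bars give, for each of the 6 libraries, the share of all miRNA counts in percent taken by miR-16-5p, by the 7 other members and by the let-7 family with miR-98. The miR-16-5p segment spans 23.5% to 28.0% in wild type and 17.5% to 17.8% in ΔTUT4/7 libraries, and the let-7 segment spans 5.57% to 6.36% and 19.2% to 19.7%.

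In the quasi-likelihood test of edgeR, adjusted by Benjamini-Hochberg over the 826 miRNAs, 3 of the 8 members were lower in ΔTUT4/7 cells at an adjusted p under 0.05, namely miR-15b-5p, miR-15a-5p and miR-16-5p. Among all tested miRNAs 21.9% were lower by this rule. miR-497-5p alone was higher, against 23.2% of all tested miRNAs. The other 4 members, the 3 from 3p arms and miR-195-5p, did not pass. None of the 8 reached a 2-fold change with an adjusted p under 0.05 by edgeR, DESeq2 or limma, whereas 13.6% of tested miRNAs were lower and 16.5% higher by that rule in edgeR. At an unadjusted p under 0.05 edgeR called 4 of the 8 members, beside 53.8% of tested miRNAs, and none of them at 2-fold, beside 33.9%. The libraries of the strains did not overlap for 3 members that were lower, beside 29.5% of tested miRNAs, and for 1 that was higher, beside 28.8%. The median log2 fold change was -0.17 over the members and 0.013 over all tested miRNAs. The number of members that passed is near the background, and the rest of the description turns on which arms moved.

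**Figure D2:**
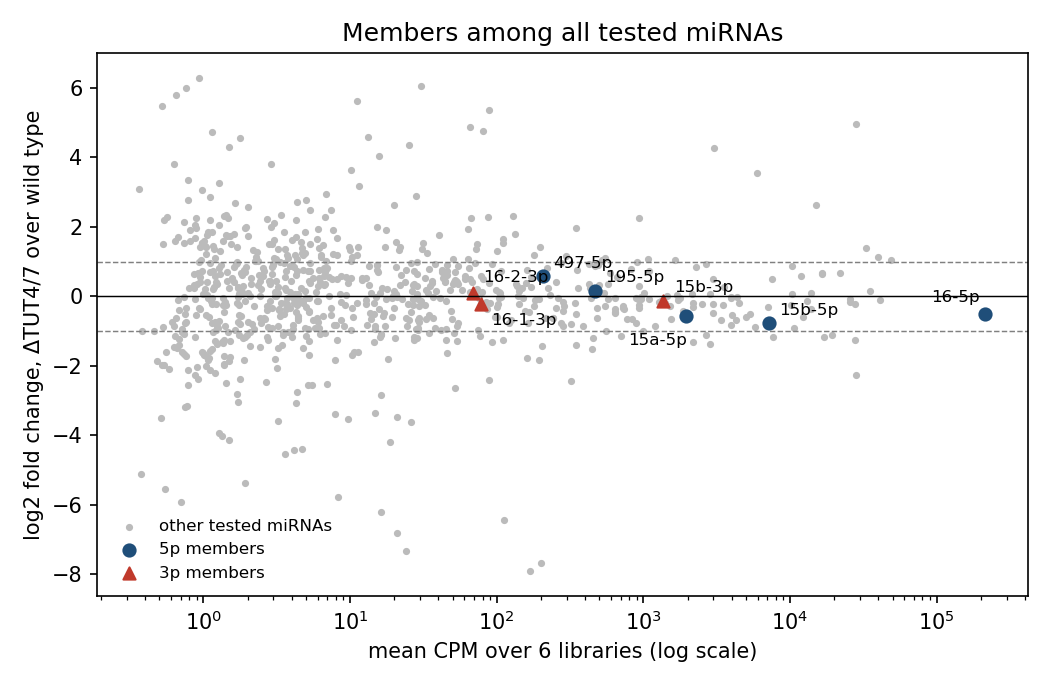
Each point is 1 of the 826 tested miRNAs, with its mean CPM over 6 libraries on a log axis and its log2 fold change, ΔTUT4/7 over wild type, on the vertical axis; dashed lines mark a 2-fold change. The 8 members, 5p arms as circles and 3p arms as triangles, lie between -0.76 and 0.58, inside the dashed lines, with miR-16-5p at the far right.

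The guides of both miR-15/16 clusters were lower in ΔTUT4/7 cells. miR-15b-5p, the guide of the SMC4 intron, had 5093, 5456 and 5323 CPM in ΔTUT4/7 replicates 1, 2 and 3 and 8740, 9154 and 9052 CPM in wild type replicates 1, 2 and 3. The strains were far apart relative to the spread within each. The means were 5291 ± 184 and 8982 ± 216 CPM (SD, n = 3 each), and the log2 fold change was -0.76 (standard error, SE, 0.11, adjusted p = 1.58e-04 by edgeR), or 1.70-fold lower. It was the largest change among the members, and it passed the test in each of the 21 other settings run.

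miR-15a-5p, the guide of MIR15A in DLEU2, had 1579, 1606 and 1564 CPM in the ΔTUT4/7 libraries and 2496, 1942 and 2562 CPM in the wild type libraries. The ΔTUT4/7 libraries were alike, while wild type replicate 2 was lower than the other two but still above all ΔTUT4/7 libraries. The log2 fold change was -0.56 (SE 0.14, adjusted p = 0.00627 by edgeR), or 1.47-fold lower. Its call was lost when totals left out let-7 and miR-98 (-0.34, edgeR adjusted p = 0.0656) and when the trend of each library with GC content was removed (-0.31, edgeR adjusted p = 0.0629).

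miR-16-5p, the guide shared by both clusters, had 176867, 178171 and 174575 CPM in the ΔTUT4/7 libraries. In the wild type libraries it had 240252, 279883 and 235101 CPM. These wild type counts are written with 3 significant digits in the file, which leaves them uncertain by up to 0.490%, far less than the difference between strains. The log2 fold change was -0.51 (SE 0.092, adjusted p = 8.79e-04 by edgeR), or 1.43-fold lower. Without wild type replicate 2 it was -0.43 (edgeR adjusted p = 0.00147).

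On the reduced total the 3 guides were still lower in every ΔTUT4/7 library than in every wild type library, by less. By edgeR's adjusted p, 18.8% of all tested miRNAs were lower on that total and 28.3% higher. An unadjusted p under 0.05 was reached by 4 members and 55.2% of tested miRNAs, and with a 2-fold change by no member and 34.9%. The log2 fold change was -0.63 (SE 0.11, adjusted p = 7.21e-04 by edgeR) for miR-15b-5p. It was -0.43 (edgeR adjusted p = 0.0205) for miR-15a-5p and -0.39 (edgeR adjusted p = 0.00998) for miR-16-5p. The median over all tested miRNAs was 0.14 on this total, so relative to it the guides were lower by more than these values.

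**Figure D3:**
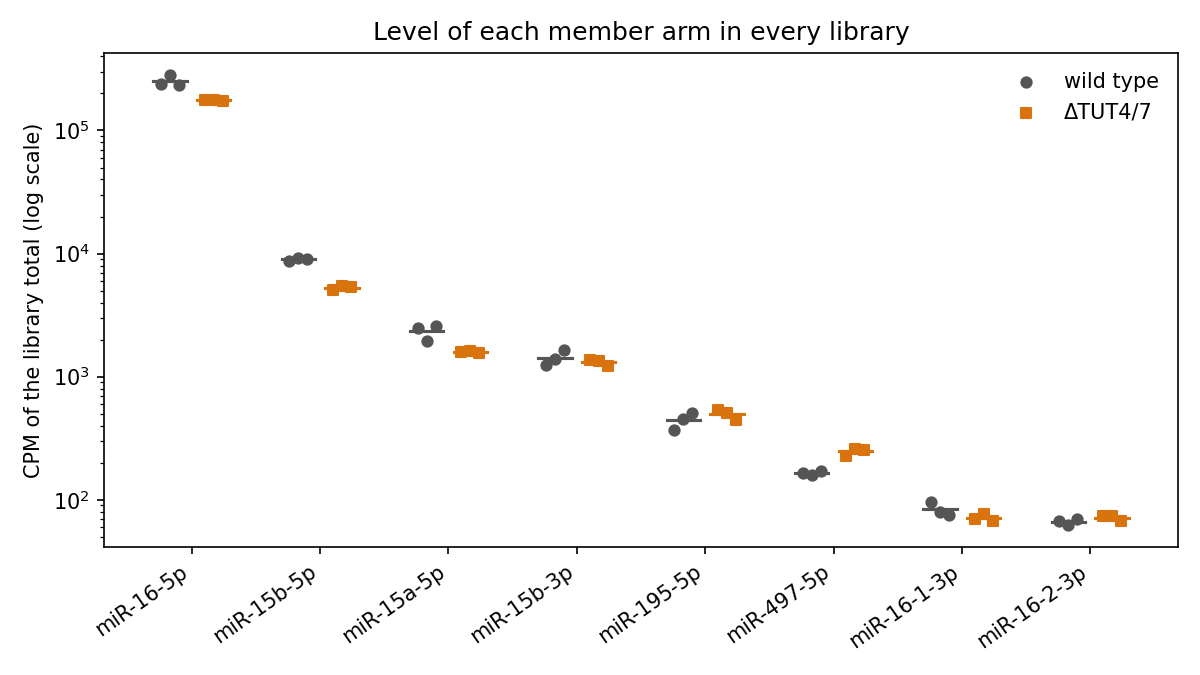
Points give the CPM of each member in every library on a log axis, circles for wild type and squares for ΔTUT4/7, with a line at the mean of each strain (n = 3). The squares lie below the circles for miR-16-5p, miR-15b-5p and miR-15a-5p, above them for miR-497-5p, and among them for the other 4.

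The 3p arms of the same hairpins did not pass the test. miR-15b-3p, the passenger of miR-15b-5p, had 1367, 1341 and 1223 CPM in the ΔTUT4/7 libraries and 1234, 1400 and 1646 CPM in the wild type libraries. The strains overlapped, and the log2 fold change was -0.12 (SE 0.14, adjusted p = 0.512 by edgeR), with 95% limits of -0.40 and 0.16. Its sign turned on the reduced total, where the value was 0.0077.

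miR-16-1-3p, which reports on the DLEU2 locus, had 70.0, 77.1 and 67.8 CPM in the ΔTUT4/7 libraries and 95.2, 79.8 and 75.6 CPM in the wild type libraries. miR-16-2-3p, which reports on the SMC4 locus, had 74.1, 73.2 and 66.8 CPM in the ΔTUT4/7 libraries and 67.1, 62.9 and 69.6 CPM in the wild type libraries. Both overlapped between the strains. The log2 fold changes were -0.22 (SE 0.17, adjusted p = 0.312 by edgeR) for miR-16-1-3p and 0.10 (SE 0.17, adjusted p = 0.645 by edgeR) for miR-16-2-3p. Their 95% limits from the standard error, -0.56 to 0.12 and -0.22 to 0.43, still allow for miR-16-1-3p a decrease as large as that of miR-16-5p but not for miR-16-2-3p. These arms rested on 296 to 636 counts a library, and on the reduced total the ΔTUT4/7 libraries of miR-16-2-3p lay just above all wild type libraries (0.23, edgeR adjusted p = 0.254). By that separation 24.7% of all tested miRNAs were lower and 32.7% higher on the reduced total. The remaining 3p arm of these clusters, miR-15a-3p, which is no member, had 21.3 to 28.2 CPM in ΔTUT4/7 and 11.3 to 25.6 CPM in wild type cells, with a log2 fold change of 0.33 (edgeR adjusted p = 0.353).

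Ratios of counts within a library do not depend on the total, and they compare the arms directly. For 1 miR-15b-5p count there were 0.268, 0.246 and 0.230 miR-15b-3p counts in the ΔTUT4/7 libraries and 0.141, 0.153 and 0.182 in the wild type libraries. The ratio of the 3p to the 5p arm was thus higher by 0.65 on the log2 scale, or 1.57-fold, with the strains apart. For 1 count of the 3p arms of miR-16, summed over both loci, there were 1228, 1185 and 1297 counts of miR-16-5p in the ΔTUT4/7 libraries and 1480, 1961 and 1619 in the wild type libraries, a difference of -0.44 on the log2 scale, again with the strains apart. Each of these differences had an exact two-sided permutation p = 0.1, the smallest the design allows, and an adjusted p = 0.117 over the 7 ratios tested. The exact test therefore cannot pass 0.05 here. The ratio of miR-15a-5p to miR-15a-3p, chosen after the values were seen and not tested, was 55.5 to 74.2 in ΔTUT4/7 and 100.2 to 171.9 in wild type cells.

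A lower ratio of the more abundant to the less abundant arm was also seen outside these clusters. Of 189 miRNA names with both arms tested and counted in every library, 25.9% had a lower ratio in all ΔTUT4/7 libraries than in all wild type libraries and 9.52% a higher one, and the median difference was -0.12 on the log2 scale. miR-18a (-1.49), miR-19a (-1.82) and miR-25 (-1.05), named here after their values were seen, are examples from other clusters. By this ratio those clusters did not shift as a whole. In the cluster of miR-18a and miR-19a, miR-17 (-0.84) and miR-20a (0.034) overlapped between the strains. In that of miR-25, miR-106b (0.53) overlapped and miR-93 was lower (-0.24). The more abundant arm is the 3p arm for miR-19a, miR-25 and miR-106b, and the 5p arm for the other names given here. The value of miR-106b thus sets its 3p arm over its 5p arm. miR-106b-5p itself was lower (log2 fold change -0.66, edgeR adjusted p = 0.0336), and miR-106b-3p did not pass (-0.075, edgeR adjusted p = 0.69). Of the 4 names from the clusters described here, miR-15a, miR-15b and miR-195 were lower and miR-497 overlapped. With 4 names, part of them added after the values were seen, nothing is read from this count against the background, and miR-16, whose 5p arm comes from both loci, is not among the 189.

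Ratios within and between the miR-15/16 clusters were compared in the same way. There were 3.23, 3.40 and 3.40 counts of miR-15b-5p for each of miR-15a-5p in the ΔTUT4/7 libraries and 3.50, 4.71 and 3.53 in the wild type libraries, a difference of -0.21 on the log2 scale. That difference rested largely on wild type replicate 2 and was -0.074 without it. miR-16-5p had 25.2 to 26.5 counts for each count of miR-15a-5p and miR-15b-5p together in ΔTUT4/7 and 20.2 to 25.2 in wild type cells, a difference of 0.21. The closest libraries of this ratio, 25.23 for ΔTUT4/7 replicate 2 and 25.22 for wild type replicate 2, differed by less than the rounding of the wild type count. miR-16-2-3p had 1.06, 0.949 and 0.984 counts for each of miR-16-1-3p in the ΔTUT4/7 libraries and 0.705, 0.788 and 0.921 in the wild type libraries, a difference of 0.32. Counting alone left each of these 3p arms uncertain by 4.66% to 5.37%. That is more than the gap between the closest libraries, ΔTUT4/7 replicate 2 and wild type replicate 3. These 3 ratios each had an exact permutation p = 0.1 and an adjusted p = 0.117.

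**Figure D4:**
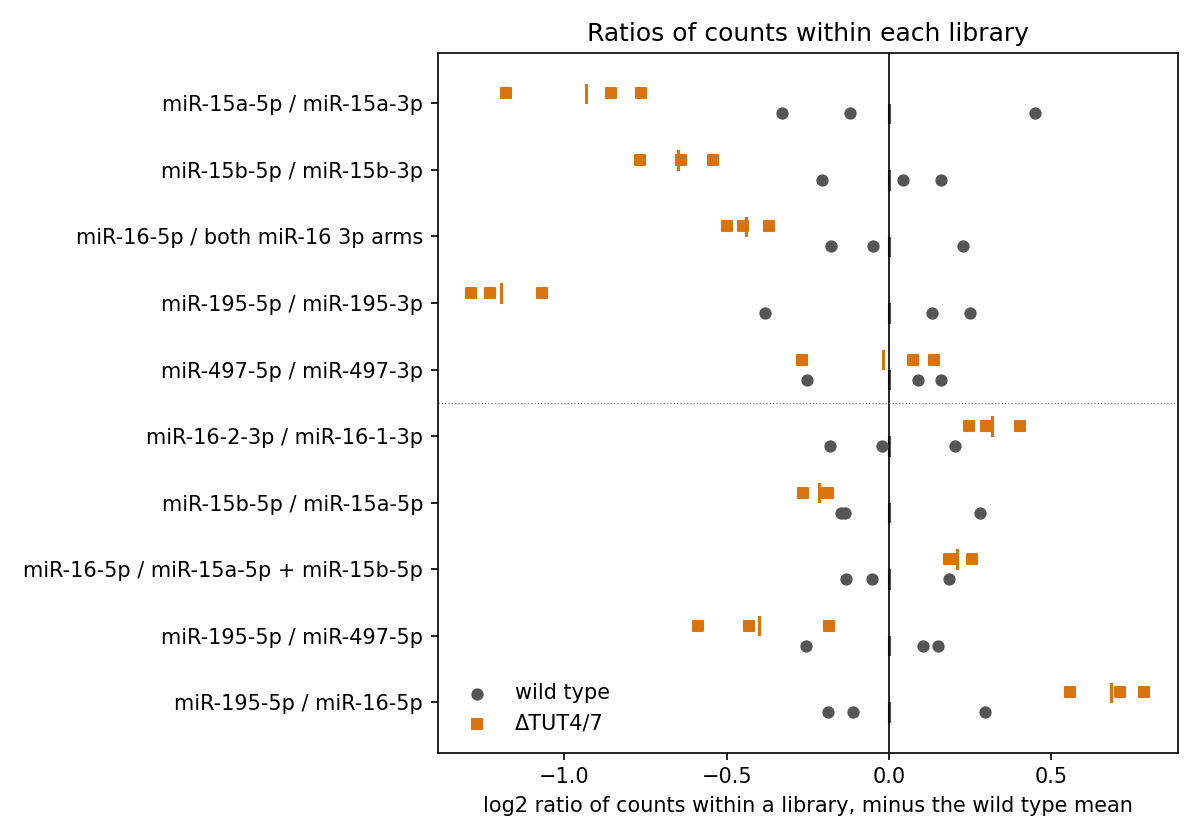
Points give the log2 ratio of counts within each library minus the wild type mean, circles for wild type and squares for ΔTUT4/7, with a line at each strain's mean (n = 3). The 5 ratios above the dotted line set a 5p arm over its 3p arm. Those of miR-15a, miR-15b, miR-16 and miR-195 lie lower in all ΔTUT4/7 libraries than in all wild type libraries, and that of miR-497 overlaps. Since miR-16 is not among the 189 names with both arms, the like count is 3 of 4 names, beside 25.9% of 189. Nothing is read from this count, as the miR-15a, miR-195 and miR-497 ratios were added after the values were seen. The 5 ratios below the line set loci or cluster partners against each other, and differ by -0.40 to 0.69.

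In the third cluster neither member was lower by the test. miR-497-5p had 228.6, 259.9 and 254.9 CPM in the ΔTUT4/7 libraries and 166.4, 159.4 and 171.5 CPM in the wild type libraries. The strains did not overlap. Its log2 fold change was 0.58 (SE 0.15, adjusted p = 0.00785 by edgeR), or 1.495-fold higher, and 0.71 (edgeR adjusted p = 0.00202) on the reduced total. The call was lost without ΔTUT4/7 replicate 2 (0.54, edgeR adjusted p = 0.0539).

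miR-195-5p had 532.1, 509.4 and 448.1 CPM in the ΔTUT4/7 libraries and 368.3, 452.7 and 503.4 CPM in the wild type libraries. The strains overlapped, and its log2 fold change was 0.17 (SE 0.16, adjusted p = 0.409 by edgeR), with 95% limits of -0.15 and 0.48. There were 1.76 to 2.33 counts of miR-195-5p for each of miR-497-5p in ΔTUT4/7 and 2.21 to 2.94 in wild type libraries, which overlapped (difference of -0.40 on the log2 scale, exact permutation p = 0.2, adjusted p = 0.2). The count of miR-195-5p was 0.257% to 0.301% of that of miR-16-5p in ΔTUT4/7 and 0.153% to 0.214% in wild type cells, a difference of 0.69 on the log2 scale with the strains apart (exact permutation p = 0.1, adjusted p = 0.117). Whether reads of miR-16-5p were assigned to miR-195-5p was not tested.

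The 3p arms of this cluster, which are no members, were listed too. miR-195-3p, the passenger of miR-195-5p, had 43.8, 46.8 and 42.9 CPM in the ΔTUT4/7 libraries and 18.8, 16.2 and 16.6 CPM in the wild type libraries. All ΔTUT4/7 libraries were far above the wild type libraries, with 201 to 225 counts against 72 to 129. The log2 fold change was 1.37 (SE 0.19, adjusted p = 1.16e-04 by edgeR), or 2.59-fold higher, the only change past 2-fold among the 11 listed arms of the 6 hairpins. Counts of miR-195-3p came to 8.22%, 9.18% and 9.57% of those of miR-195-5p in the ΔTUT4/7 libraries and 5.11%, 3.58% and 3.30% in those of the wild type. This ratio was chosen after the values were seen and not tested. miR-497-3p rested on 8 to 16 counts a library, with a log2 fold change of 0.61 (SE 0.36, adjusted p = 0.175 by edgeR), close to that of miR-497-5p.

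**Figure D5:**
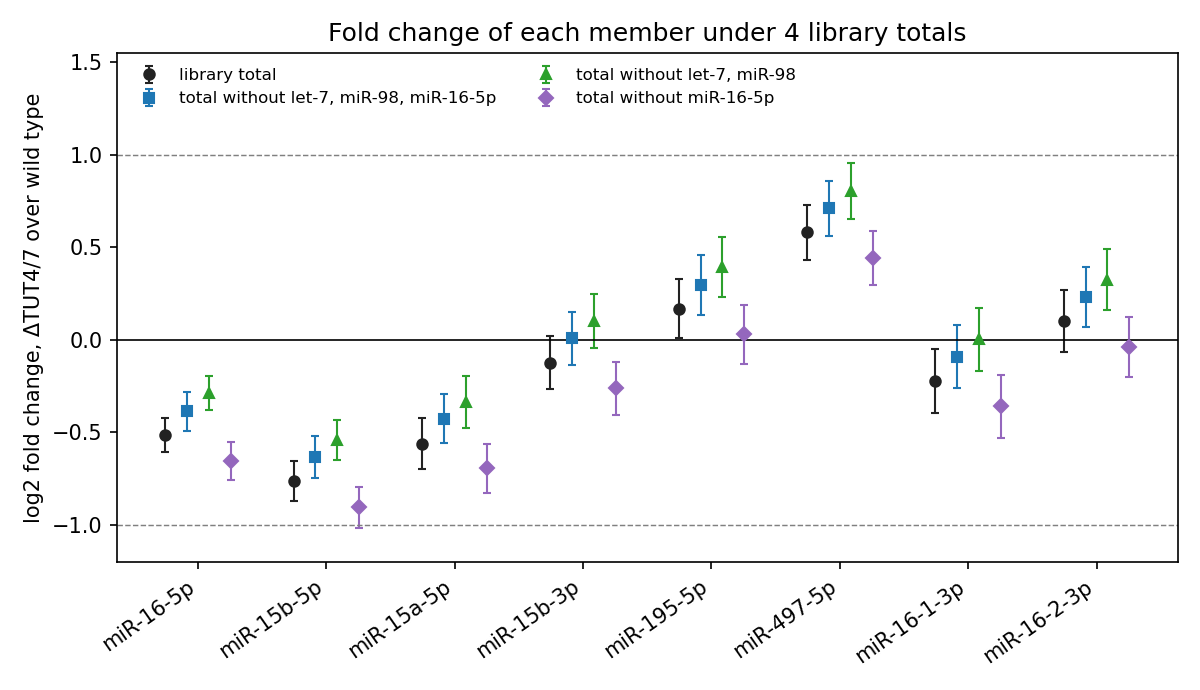
Log2 fold changes of the 8 members, ΔTUT4/7 over wild type, with standard errors from the edgeR fit, under 4 choices of the library total; dashed lines mark a 2-fold change. miR-16-5p, miR-15b-5p and miR-15a-5p stay below 0 and miR-497-5p and miR-195-5p above 0 under all 4, while miR-15b-3p, miR-16-1-3p and miR-16-2-3p change sign.

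The choice of the total moved the members by nearly the same amount. With the total without miR-16-5p alone, the log2 fold change was -0.90 for miR-15b-5p and 0.44 for miR-497-5p, and the median of all tested miRNAs was -0.13. With the total without let-7 and miR-98 these were -0.54, 0.80 and 0.23. The order of the members from miR-15b-5p to miR-497-5p is set by the counts within libraries and did not depend on this choice.

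By level, miR-16-5p led the members in both strains, followed by miR-15b-5p, miR-15a-5p, miR-15b-3p, miR-195-5p, miR-497-5p and the 3p arms of miR-16. The arms are all 21 or 22 nt long, so CPM needed no scaling by length, while capture by the library kit can differ between sequences. miR-16-1-3p and miR-16-2-3p, at 71.64 ± 4.88 and 71.35 ± 4.003 CPM in ΔTUT4/7 cells, did not differ beyond their spread. In wild type cells they had 83.54 ± 10.31 and 66.53 ± 3.40 CPM, and miR-16-1-3p was the higher one in every library. miR-15b-3p stood below miR-15a-5p in each library of the wild type and of ΔTUT4/7. The standard deviation in CPM was larger between wild type than between ΔTUT4/7 libraries for 6 of the 8 members, the exceptions being miR-16-2-3p and miR-497-5p. Relative to the mean, miR-15b-5p was an exception too, with a coefficient of variation of 2.40% in wild type and 3.48% in ΔTUT4/7 libraries. For miR-16-5p the coefficient of variation was 9.73% in wild type and 1.03% in ΔTUT4/7 libraries, against 0.0834% and 0.108% from counting alone. For miR-16-2-3p it was 5.11% and 5.61%, against 5.22% and 5.37% from counting.

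Outside the 3 clusters, 1 other listed miRNA with a RefSeq sequence carries the same seed, miR-424-5p of chromosome X. It had 900.3 to 968.1 CPM in ΔTUT4/7 and 785.8 to 1263 CPM in wild type cells, and its log2 fold change was -0.069 (SE 0.18, adjusted p = 0.772 by edgeR). The 3p arm of the same hairpin, miR-424-3p, was higher (log2 fold change 0.89, SE 0.20, adjusted p = 0.00395 by edgeR). The ratio of miR-424-5p to miR-424-3p was lower in all ΔTUT4/7 libraries (-0.93 on the log2 scale), as for 25.9% of the 189 names. This ratio was not tested. Next to miR-424 lies miR-503, whose arm ratio overlapped between the strains (0.0011). miR-503-5p shares bases 2 to 7 of the seed. It was higher in ΔTUT4/7 cells, at 1434 to 1482 against 635.8 to 722.1 CPM (log2 fold change 1.08, SE 0.13, adjusted p = 4.34e-05 by edgeR). Summed over the 6 miRNAs with the seed AGCAGCA, the mean level was 185089 ± 1938 CPM for ΔTUT4/7 against 264648 ± 24109 CPM for the wild type (SD, n = 3 each), a difference of -0.51 on the log2 scale (exact permutation p = 0.1) and of -0.38 on the reduced total. miR-16-5p made up 95.3% to 95.5% of that sum in ΔTUT4/7 and 94.6% to 95.7% in wild type cells. The share of miR-497-5p in it was 0.123% to 0.139% in ΔTUT4/7 and 0.0545% to 0.0690% in wild type cells.

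Of the 383 other tested miRNAs with a mean above 10 CPM, the 5 with a pattern over the 6 libraries closest to that of miR-16-5p were miR-28-3p, miR-589-3p, miR-140-3p, miR-10b-3p and miR-361-3p. The root mean square difference of their log2 CPM, centred on each miRNA's mean, was 0.067 to 0.094. Their log2 fold changes were -0.63, -0.59, -0.66, -0.52 and -0.33, and the last of these did not pass the test (edgeR adjusted p = 0.0645). Since they were chosen by their pattern over the same libraries, fold changes like that of miR-16-5p follow from the choice. The closest to miR-15b-5p were miR-99b-5p (0.093), miR-589-3p (0.10) and miR-28-3p (0.11).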

How the data were processed

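The authors prepared small RNA libraries from total RNA of 3 biological replicates per strain with the QIAseq miRNA Library Kit, cut the reads down to 18 nt, used Bowtie 1.0.0 for alignment against hg38 and quantified miRBase mature miRNAs in Partek Flow (Partek 10.0.22). Trimming to 18 nt removes the 3′ end, where uridylation acts. The deposited values are estimated counts from Partek's expectation-maximization model, all whole numbers, and the wild type counts of miR-16-5p carry only 3 significant digits. The sources used here do not say whether molecular identifiers were collapsed, so counting errors may be too small. A second file with the authors' own comparison (p-values, ratios and strain means) was not used.

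Members were matched by name, with groups and replicate numbers from the labels. Members, lists and the rule for named miRNAs (members, other arms of their hairpins, seed relatives and closest patterns) were chosen with earlier results of these data known. CPM used column totals, with normalization factors of 1. The test, for miRNAs whose highest count exceeded 7, was that of edgeR 4.0.16 (glmQLFit, glmQLFTest; common dispersion 0.0358) in R 4.3.3. The script was also run on simulated data with the common dispersion for every miRNA. At an adjusted p under 0.05 edgeR there called 9 of 90 changes of 0.5 on the log2 scale, 56 of 96 changes of 1 and 1 of 589 miRNAs without a change. The simulation did not use the dispersion of each member, whose log2 fold changes had standard errors of 0.092 to 0.17. These rates are thus not rates for the members. An arm that did not pass is still not shown to be unchanged. Ratios and sums were compared by exact permutation in scipy 1.17.1. The ratio of arms over all miRNA names was added after the data were seen and has no test. Alternatives were other library totals, TMM and RLE factors, DESeq2 1.42.0, limma 3.58.1 on log2(CPM + 1), other filters, the replicate block, each library left out, summing of shared 18 nt and removal of each library's GC trend (lowess span 0.5). Of 1000 names, 897 matched a RefSeq mature sequence on GRCh38.p14, 892 with the same chromosome and start.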

Additional observations from a re-analysis of the deposited data

How the results depend on the processing

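Of 21 other settings of the fit, 2 were chosen after seeing the data, the lower and upper rounding limits of the wild type miR-16-5p counts, and these moved no call. The number of members past an adjusted p of 0.05 was 4 in the edgeR fit and 3 or 4 with 1 library left out. It was 2, miR-15b-5p and miR-497-5p, when removal of the GC trend was combined with the replicate block, and miR-16-5p then had -0.37 (edgeR adjusted p = 0.0609); with the replicate block alone it was 4. The cause was not tested. No setting gave a 2-fold call. The sign of 3p arms that had not passed turned: miR-15b-3p had 0.087 with the GC trend removed over the 742 miRNAs with a sequence, 0.094 with the block added, 0.10 without let-7 and miR-98 in the total and 0.0077 without miR-16-5p as well. miR-16-1-3p had 0.0025 without let-7 and miR-98 in the total, and miR-16-2-3p had -0.036 without miR-16-5p in the total, each of which shifts all miRNAs nearly alike. The 7 tested ratios and the sums kept their direction with each library left out.

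The labels link replicates of the strains by number only. Deviations from the strain means of same-numbered libraries correlated at -0.17, -0.15 and -0.25 over 391 miRNAs with a mean above 10 CPM. Differently numbered pairs had -0.096 to 0.19. Deviations within a strain balance out, so these values cannot tell whether libraries of the strains were handled together. Depth was lowest for miR-497-3p, at 8 to 16 counts a library, followed by miR-195-3p at 72 to 225 and miR-15a-3p at 90 to 132.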
